A study of Mus musculus with 12 samples.

Results

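The genes described are 10 that set how much glucose the liver makes and how liver cells respond to insulin: Pck1, G6pc, Fbp1, Pcx, Tat, Sds, Irs1, Irs2, Foxo1 and Insr. They were taken by name from a count table of 54532 mouse genes, each name matched 1 row, and all 10 had counts in all 12 libraries. The libraries came from liver and subcutaneous fat of male mice that received a tail vein injection of an AAV8 vector at 10 weeks of age and a low-fat diet for the next 16 weeks. The vector was either empty (null) or carried full-length human HKDC1, a hexokinase family member (hHKDC1 OE), and both used the thyroxine-binding globulin promoter (TBGp), which is active in hepatocytes. Each of the 4 groups (null liver, hHKDC1 OE liver, null fat, hHKDC1 OE fat) held 3 libraries. The strain, the hour of collection and the feeding state of the mice whose RNA was sequenced are not given in the sources used here. Groups were taken from the sample titles and the treatment tag. The description field calls replicates 2 and 3 of hHKDC1 OE knockouts in both tissues, which goes against both of those labels. Human HKDC1 RNA was not analysed here, and mouse Hkdc1 had 0 to 8 counts in any library, so the counts do not check the vector labels.

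In fasting, hepatocytes make glucose from lactate, glycerol and amino acids. PCX turns pyruvate into oxaloacetate, PCK1 turns oxaloacetate into phosphoenolpyruvate, FBP1 removes a phosphate from fructose bisphosphate and G6PC releases free glucose, while TAT and SDS feed the carbon of tyrosine and serine into the same route. After a meal, insulin binds its receptor (INSR), the adaptors IRS1 and IRS2 pass the signal on, and the transcription factor FOXO1 is kept out of the nucleus, which lowers the transcription of Pck1, G6pc, Irs2 and Insr. White adipocytes use part of the same set: PCX and PCK1 serve fatty acid and glycerol synthesis there, and INSR, IRS1 and IRS2 carry the insulin signal.

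On GRCm38, the enzyme genes were Pck1 (ENSMUSG00000027513, chr2:173153048-173159273, plus strand), G6pc (ENSMUSG00000078650, chr11:101367561-101377903, plus strand), Fbp1 (ENSMUSG00000069805, chr13:62864753-62888282, minus strand) and Pcx (ENSMUSG00000024892, chr19:4510472-4621752, plus strand). The amino acid enzymes were Tat (ENSMUSG00000001670, chr8:109990437-109999803, plus strand) and Sds (ENSMUSG00000029597, chr5:120476526-120483932, plus strand). The insulin signalling genes were Insr (ENSMUSG00000005534, chr8:3122061-3279617, minus strand), Irs1 (ENSMUSG00000055980, chr1:82233101-82291416, minus strand), Irs2 (ENSMUSG00000038894, chr8:10984681-11008458, minus strand) and Foxo1 (ENSMUSG00000044167, chr3:52268336-52353221, plus strand). Each is annotated as protein coding and has the same position in GENCODE mouse release M21. The libraries kept no strand information, so reads where genes overlap cannot be assigned. Sds overlaps Plbd2, with up to 2828 counts in a library, and an antisense gene, and its level is the least certain of the 10. Pcx overlaps Lrfn4, with up to 178 counts, and the genes that overlap Irs2 and Foxo1 had at most 42 and 32 counts. Pck1, G6pc, Fbp1 and Tat overlap no other gene of the table.

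The DNA just upstream is shown for 5 of these genes, Pck1, G6pc, Tat and the insulin receptor substrates Irs1 and Irs2, whose transcription responds to fasting hormones or insulin. Sites outside the windows given below were not searched. RefSeq start sites on GRCm38.p6 matched 8 of the 10 genes, and Sds and Insr were not matched. In the 250 bases upstream of the start, 4 motifs were searched on both strands: ACGTCA, the short site of cAMP-responsive factors; CAAAACA, the core of the insulin response element that FOXO1 binds; GTAAACA, the FOXO consensus; and CACGTG, the E-box. Capitals below mark every match, 5′ to 3′ on the gene's own strand, and only bases outside the gene's span in the count table are shown. The windows are chr2:173152823-173153047 for Pck1, chr11:101367466-101367560 for G6pc, chr8:109990186-109990435 for Tat, chr1:82291440-82291689 for Irs1 and chr8:11008930-11009179 for Irs2.
Pck1: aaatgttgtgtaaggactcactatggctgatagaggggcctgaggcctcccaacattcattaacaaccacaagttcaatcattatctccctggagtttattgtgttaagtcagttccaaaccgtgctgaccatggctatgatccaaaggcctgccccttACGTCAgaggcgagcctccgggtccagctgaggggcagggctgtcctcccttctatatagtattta
G6pc: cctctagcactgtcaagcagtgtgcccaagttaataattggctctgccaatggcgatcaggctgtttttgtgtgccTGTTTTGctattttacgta
Tat: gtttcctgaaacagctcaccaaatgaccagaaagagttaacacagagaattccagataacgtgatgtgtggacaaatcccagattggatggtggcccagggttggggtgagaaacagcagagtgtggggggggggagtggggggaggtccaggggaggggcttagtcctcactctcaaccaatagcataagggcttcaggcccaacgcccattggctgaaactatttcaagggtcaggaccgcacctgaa
Irs1: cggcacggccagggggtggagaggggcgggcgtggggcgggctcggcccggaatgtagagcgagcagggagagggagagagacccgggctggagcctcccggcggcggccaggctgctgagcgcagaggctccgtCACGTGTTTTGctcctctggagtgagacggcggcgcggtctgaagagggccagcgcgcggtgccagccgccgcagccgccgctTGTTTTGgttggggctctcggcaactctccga
Irs2: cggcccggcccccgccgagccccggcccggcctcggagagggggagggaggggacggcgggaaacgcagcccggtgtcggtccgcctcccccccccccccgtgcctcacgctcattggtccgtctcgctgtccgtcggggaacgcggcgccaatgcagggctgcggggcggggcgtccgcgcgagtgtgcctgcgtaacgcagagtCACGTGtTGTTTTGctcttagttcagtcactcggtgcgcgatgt

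ACGTCA was found in Pck1 alone of the 8 genes, with its first base 91 bases upstream of the start, and 6.47% of 32851 mouse promoters held it in a window of the same length. CAAAACA was found in G6pc, 174 bases upstream, at 111 and 32 bases upstream in Irs1, and in Irs2, 37 bases upstream, against 5.56% of all promoters. CACGTG was found in Pcx, Irs1 and Irs2, against 6.02% of all promoters. Pcx had 2 start sites, and the match was upstream of 1 of them, while the other held none of the 4 motifs. In Irs1 the last letters of CACGTG are also the first of a CAAAACA match read on the other strand. GTAAACA, found in 3.17% of all promoters, was in no window of the 8 genes, and Tat, Fbp1 and Foxo1 held none of the 4 motifs. These matches describe the letters only.

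Each library held 15496019 to 19954971 counts, so 1 CPM (a count scaled to library size, with normalization factors of each tissue) stands for 15.4 to 21.1 counts. The tissue labels fitted their markers. The summed level of 9 hepatocyte markers, Alb among them, was 96149 to 156691 CPM in liver and 564 to 5599 CPM in fat with 1 scaling over the 12 libraries, and that of 8 adipocyte markers was 8953 to 14106 CPM in fat and 33.4 to 67.4 CPM in liver. Other CPM are on the scale of their own tissue unless stated. Markers of kidney tubule, the other tissue that makes glucose, summed to at most 6.88 CPM in any library. Fat libraries differed in their makeup. B cell markers summed to 871, 50.0 and 637 CPM in the 3 hHKDC1 OE fat libraries and to 2.23 to 3.32 CPM in null fat, and all 8 of them and all 6 T cell markers were higher in every hHKDC1 OE library than in any null one. Markers of skeletal muscle summed to 17914, 21653 and 510 CPM in null fat and 15581, 1052 and 2439 CPM in hHKDC1 OE fat. In bulk tissue, fewer cells of a type and less RNA per cell cannot be told apart.

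Compared per length of transcript, the enzymes and the signalling genes stood at different heights (deposited FPKM, fragments per kilobase scaled to library size, mean ± SD, n = 3). In null liver, Pck1 led at 1836 ± 215 FPKM (1966, 1955 and 1588 in replicates 1 to 3), and Tat followed at 1812 ± 483 (2271, 1856 and 1308). The ranges of these 2 overlapped. Fbp1 came next at 961 ± 118 FPKM, and its range was below that of Tat. G6pc at 322 ± 110 and Sds at 215 ± 26.7 FPKM overlapped, and Pcx stood below both at 180 ± 5.78 FPKM. The 4 genes of insulin signalling were far lower, with Foxo1 in replicate 1 the highest single value at 15.5 FPKM. Insr, the receptor, was at 12.8 ± 0.858 FPKM and Foxo1 at 12.7 ± 2.57, and their ranges overlapped. Irs2 was at 3.59 ± 1.15 FPKM and Irs1 at 1.07 ± 0.234, each with a range below that of the gene before it.

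In null fat the order was another. Pck1 again led at 767 ± 173 FPKM, Pcx was next at 196 ± 13.5, and neither range touched that of another of the 10. Tat at 39.7 ± 22.3 FPKM, Fbp1 at 21.2 ± 13.4 and Foxo1 at 17.0 ± 1.44 followed, with overlapping ranges from each to the next, and the range of Foxo1 was above that of Insr. Insr was at 10.4 ± 0.595 FPKM, Irs2 at 7.61 ± 1.14, G6pc at 7.60 ± 4.80, Sds at 6.14 ± 4.82 and Irs1 at 2.38 ± 0.067, and of these only Insr and Irs2 did not overlap as neighbours. Across the null fat libraries, G6pc, Fbp1, Tat and Sds varied most, with a coefficient of variation of 54.2% to 76.6% on the CPM scale, against 3.72% to 24.2% for the other 6.

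More neighbours in the order overlapped in the hHKDC1 OE groups. In hHKDC1 OE liver, Pck1 was at 1258 ± 492 FPKM, Fbp1 at 837 ± 66.7, Tat at 813 ± 470.4, G6pc at 279.6 ± 170.2, Pcx at 159 ± 25.0 and Sds at 154 ± 83.7, and each overlapped the next. Below them stood Insr at 12.6 ± 1.61 FPKM and Foxo1 at 9.61 ± 2.34, which overlapped, then Irs2 at 4.57 ± 1.47 and Irs1 at 0.926 ± 0.181, which did not. In hHKDC1 OE fat, Pck1 at 620.2 ± 132 and Pcx at 174 ± 35.2 FPKM stood apart from the other 8 and from each other. Foxo1 followed at 9.80 ± 1.96 FPKM, then Tat at 8.08 ± 7.06, Fbp1 at 7.27 ± 1.78, Insr at 7.18 ± 1.07 and Irs2 at 6.83 ± 2.11. G6pc at 2.64 ± 2.08, Irs1 at 2.08 ± 0.207 and Sds at 1.45 ± 0.884 FPKM were lowest, and from Foxo1 down each gene overlapped the next.

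**Figure D1:**
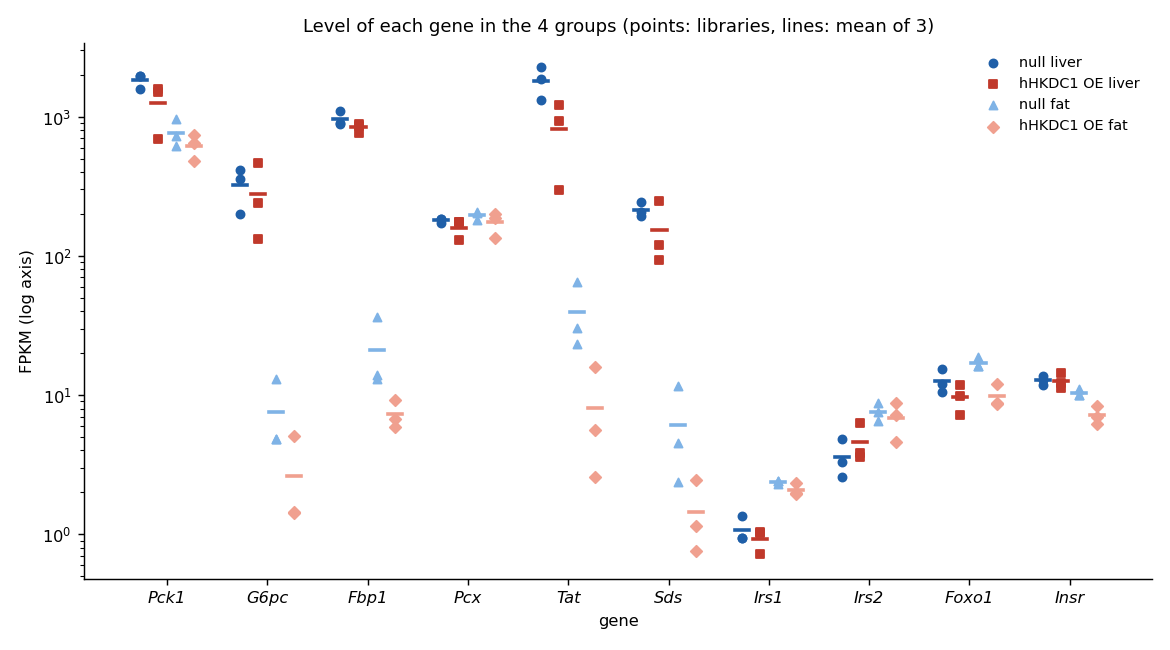
Deposited FPKM on a log axis of each gene in null liver, hHKDC1 OE liver, null fat and hHKDC1 OE fat, with 1 point per library and a line at the mean of 3. G6pc, Fbp1, Tat and Sds sit far lower in fat than in liver, while Pck1, Pcx, Foxo1 and Insr keep the same order of magnitude and Irs1 and Irs2 sit higher in fat.

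Null fat was compared with null liver to show how each gene stood in the 2 tissues without the transgene. With edgeR's quasi-likelihood test and Benjamini-Hochberg adjustment over the 15259 genes tested, 7 of the 10 passed an adjusted p of 0.05, 5 lower and 2 higher in fat, where 64.3% of all genes passed, 30.5% lower and 33.8% higher. The test's normalization put the median of all genes at a log2 difference of 0.09. The liver enzymes differed most. Fbp1 was 47.3-fold lower in fat (log2 -5.56 ± 0.47 SE, adjusted p = 3.21e-05) and Tat 47.6-fold lower (log2 -5.57 ± 0.49, adjusted p = 3.83e-05). G6pc was 44.2-fold lower (log2 -5.47 ± 0.52, adjusted p = 5.64e-05) and Sds 36.4-fold lower (log2 -5.19 ± 0.57, adjusted p = 0.000117). Without null fat replicate 3, the fat library with most hepatocyte marker RNA, the log2 values were -6.08 for G6pc, -6.17 for Fbp1 and -5.99 for Sds. Pck1 was 2.48-fold lower in fat (log2 -1.31 ± 0.28, adjusted p = 0.00425). That smaller difference was lost with scaling by library size alone (log2 -0.42, adjusted p = 0.187), which moved the median of all genes to 0.98.

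The insulin receptor substrates went the other way. Irs1 was 2.14-fold higher in fat than in liver (log2 1.10 ± 0.19, adjusted p = 0.00124), with 2.31 to 2.43 FPKM in fat against 0.935 to 1.34 in liver. Irs2 was 2.03-fold higher (log2 1.02 ± 0.24, adjusted p = 0.00589), with 6.48 to 8.77 FPKM against 2.601 to 4.85. Foxo1 (log2 0.37 ± 0.17, adjusted p = 0.0872), Insr (log2 -0.35 ± 0.14, adjusted p = 0.0506) and Pcx (log2 0.07 ± 0.17, adjusted p = 0.728) did not pass. With library size alone these 3 were called higher in fat, with Insr at 0.53 in place of -0.35, Foxo1 at 1.27 and Pcx at 0.96, beside the median of all genes of 0.98. Foxo1 was also called with upper-quartile normalization (log2 0.54, adjusted p = 0.0168), with a minimum of 10 counts in every library (log2 0.52, adjusted p = 0.0239) and without null liver replicate 1 (log2 0.52, adjusted p = 0.0268).

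Relatives and partners of the 10 genes were compared between the null tissues too. Pck2, the mitochondrial form of PCK1, was 4.95-fold higher in null fat than in null liver (adjusted p = 6.5e-05), and G6pc3, the widely expressed relative of G6PC, 4.55-fold higher (adjusted p = 2.83e-05). Slc37a4, which carries glucose phosphate to G6PC, was 13.4-fold lower in fat (adjusted p = 8.21e-06). The glucagon receptor (Gcgr) and the insulin-repressed secreted protein Igfbp1 were 32.4-fold and 61.6-fold lower in fat (adjusted p = 0.000237 and 1.43e-05), at log2 values of -5.02 and -5.94 that became -6.05 and -6.59 without null fat replicate 3. Among relatives of the signalling genes, the receptor Igf1r was 6.32-fold higher in fat (adjusted p = 0.000113), and Foxo3 was 1.80-fold lower (adjusted p = 0.000955) but at a log2 difference of 0.042 with library size alone. Foxo4 was 1.36-fold higher (adjusted p = 0.0335; up to 0.0931 over the alternatives, and past the threshold neither without any single null liver library nor without null fat replicate 2), and Fbp2, the muscle form of FBP1, 11.96-fold higher (adjusted p = 0.00209). Fbp2 was at 6.87, 10.98 and 2.67 CPM in the null fat libraries, whose skeletal muscle markers summed to 17914, 21653 and 510 CPM, and the part of muscle in its level was not tested. Irs3, an insulin receptor substrate of rodent fat, had 551 to 1129 counts in fat libraries and 0 to 12 in liver libraries. G6pc2 and Irs4 had 0 counts in each of the 12 libraries, which allows up to 3 counts in a library.

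The first vector comparison asked whether hepatocyte HKDC1 changed these genes in the liver itself. None of the 10 passed in liver with edgeR, where no gene passed (0% of 13351 tested, smallest adjusted p = 0.0573). DESeq2 called 94 genes, none of them among the 10. At an unadjusted p under 0.05 there was 1 of the 10, Tat, against 6.94% of all genes, 3.05% with a lower level in hHKDC1 OE. Tat was also the 1 gene whose 2 groups did not overlap, against 12.5% of all genes, 6.18% with hHKDC1 OE below. The fitted log2 fold change was below 0 for 8 of the 10 genes, with a median of -0.17 beside 0.01 for all genes tested. With 3 libraries against 3, an exact permutation test of a single gene cannot go below p = 0.1.

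Of the glucose-making enzymes, Pck1, which commits oxaloacetate to glucose synthesis, was at 4811, 4953 and 4070 CPM in null liver and 3797, 4137 and 1776 CPM in hHKDC1 OE liver. The null libraries lay close together, hHKDC1 OE replicate 3 was far below the rest, and the groups overlapped. The log2 fold change was -0.51 ± 0.30 (SE, adjusted p = 0.801), and it was -0.22 without that library. G6pc, the last step, was at 612, 736 and 360 CPM in null liver and 429, 858 and 239 CPM in hHKDC1 OE liver. The hHKDC1 OE group held both the highest and the lowest library, and the log2 fold change of -0.16 ± 0.42 (adjusted p = 0.974) became 0.18 without hHKDC1 OE replicate 3, 0.07 without null replicate 2 and -0.77 without hHKDC1 OE replicate 2. Fbp1 was at 1333, 1117 and 1141 CPM in null liver and 955, 1121 and 1130 CPM in hHKDC1 OE liver, a log2 fold change of -0.16 ± 0.17 (adjusted p = 0.895). Pcx, the entry step from pyruvate, was at 606, 628 and 600 CPM in null liver and 446, 615 and 603 CPM in hHKDC1 OE liver, a log2 fold change of -0.14 ± 0.17 (adjusted p = 0.912). For these 2 enzymes hHKDC1 OE replicate 1 was the low library and the other 2 were in or near the null range.

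Tat, the first enzyme of tyrosine breakdown and a classic glucocorticoid target, differed most of the 10 in liver. It was at 3897, 3298 and 2352 CPM in null liver and 1646, 2230 and 532 CPM in hHKDC1 OE liver. Every hHKDC1 OE library was below every null one, by a narrow margin between hHKDC1 OE replicate 2 and null replicate 3. The fit gave a 2.17-fold lower level (log2 -1.11 ± 0.44, unadjusted p = 0.0305, adjusted p = 0.650), which did not pass. Without the filter on low counts the adjusted p was 0.000156, and over all alternatives it ran up to 0.995, with log2 fold changes of -1.55 to -0.72. Sds, which deaminates serine, was at 233, 306 and 262 CPM in null liver and 149, 323 and 119 CPM in hHKDC1 OE liver. Replicate 2 of hHKDC1 OE was above every null library and the other 2 were below them. The log2 fold change was -0.44 ± 0.33 (adjusted p = 0.851), and without hHKDC1 OE replicate 2 it was -0.996 and passed (adjusted p = 0.0419), in a fit that called 146 genes in all. Replicate 3 of hHKDC1 OE was the lowest library of its group for Pck1, G6pc, Tat, Sds and Irs1, and replicate 2 was the highest for these 5.

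In insulin signalling, the receptor Insr was at 134, 121 and 132 CPM in null liver and 124, 118 and 148 CPM in hHKDC1 OE liver, a log2 fold change of 0.02 ± 0.14 (adjusted p = 0.990) with the groups interleaved. Irs1 had few counts, at 92 to 142 per liver library, and was at 8.77, 6.32 and 6.45 CPM in null liver and 6.95, 7.18 and 4.91 CPM in hHKDC1 OE liver (log2 -0.18 ± 0.24, adjusted p = 0.928). Irs2 was at 11.7, 15.4 and 22.9 CPM in null liver and 16.8, 18.6 and 29.7 CPM in hHKDC1 OE liver. It had the highest fitted value of the 10, at log2 0.38 ± 0.28 (adjusted p = 0.853), with overlapping groups. Foxo1, the transcription factor that insulin restrains, was at 95.7, 77.0 and 67.7 CPM in null liver and 75.8, 47.6 and 63.5 CPM in hHKDC1 OE liver. Its log2 fold change was -0.36 ± 0.20 (adjusted p = 0.788), and 1 hHKDC1 OE library, replicate 1, lay within the null range.

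**Figure D2:**
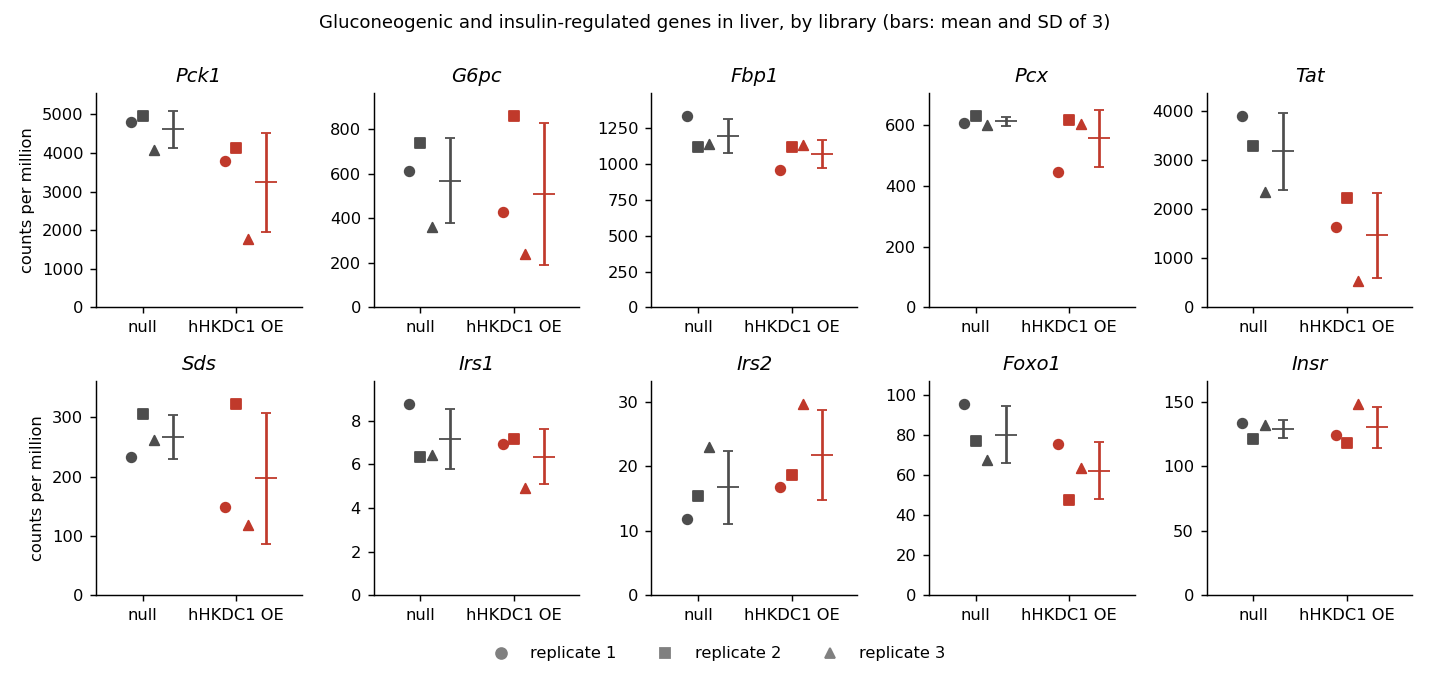
CPM in each liver library for the 10 genes, with null libraries in grey and hHKDC1 OE libraries in red, a symbol for each replicate number, and the mean and SD of 3 at the right of each group; every axis starts at 0. Tat is the 1 gene whose groups do not overlap, and the triangle of hHKDC1 OE replicate 3 is the lowest of its group for Pck1, G6pc, Tat, Sds and Irs1.

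Hepatocyte markers were read in the same liver libraries. Their sum was 111037 to 112625 CPM in null liver and 70404 to 95033 CPM in hHKDC1 OE liver, with hHKDC1 OE replicate 3 the lowest, and 6 of the 9 markers had a lower fitted level, 0 of them past the threshold, with a median log2 fold change of -0.19. Ambp at 0.58, Fgb at 0.45 and Ahsg at 0.016 lay the other way. The sum rests mainly on Alb, the most abundant marker, which was at 68947 to 75133 CPM in null liver and 38059 to 50370.0 CPM in hHKDC1 OE liver. Of 6 macrophage markers 5 had a higher fitted level, and Clec4f, a Kupffer cell marker, was at 38.7 to 70.0 CPM in null and 70.1 to 114 CPM in hHKDC1 OE liver. The part of either in the values of the 10 genes was not tested.

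Other genes of the pathway did not pass in liver with edgeR, 0 of each list, so their counts are directions of the fit only, beside 48.9% of all genes with a value below 0. Of 20 other enzymes of amino acid breakdown, 18 were lower in hHKDC1 OE liver (16 with upper-quartile normalization and 15 with library size alone), with a median log2 fold change of -0.20. Oat, which degrades ornithine, was at 975 to 1600 CPM in null and 583 to 943 CPM in hHKDC1 OE liver (log2 -0.86 ± 0.25, adjusted p = 0.520; 0.00561 to 0.995 over the alternatives). Of 15 enzymes shared by glucose synthesis and glycolysis, 12 were lower (9 with library size alone), with a median of -0.09. Gapdh, an enzyme of that list with many near-identical pseudogenes, stood apart at 2.66 to 7.49 CPM in null and 54.5 to 139 CPM in hHKDC1 OE liver (log2 3.97 ± 0.46, adjusted p = 0.0573). It was rank 2 of all genes by unadjusted p and tied for the smallest adjusted p. Over the alternatives its adjusted p ran from 3.78e-76 to 0.491. Of 14 genes of glucose use and glycogen, 8 were lower, with a median of -0.16. Ppp1r3b and Ppp1r3c, which target a phosphatase to glycogen, were the extremes of that list by p. Ppp1r3b was at 368 to 425 CPM in null and 193 to 230 CPM in hHKDC1 OE liver (log2 -0.94 ± 0.15, adjusted p = 0.163; 1.87e-05 with DESeq2 and up to 0.841 over the alternatives). Ppp1r3c was at 51.5 to 94.4 CPM and 8.11 to 31.3 CPM (log2 -1.94 ± 0.42, adjusted p = 0.362; 1.66e-21 to 0.995 over the alternatives), and at log2 -2.55 without hHKDC1 OE replicate 2.

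Genes grouped by their response to insulin split in both directions. Of 13 other genes that insulin lowers through FOXO1, 9 were lower and 4 higher in hHKDC1 OE liver, with a median of -0.27. Angptl8, which is also on the list of genes that insulin raises, was among these 4. Pdk4, which shuts off glucose oxidation in fasting, was at 4.63 to 6.45 CPM in null and 1.29 to 2.66 CPM in hHKDC1 OE liver (log2 -1.58 ± 0.33, adjusted p = 0.355; 0.00174 to 0.989 over the alternatives). Gadd45a, a stress-induced gene of the list, lay the other way at 1.61 to 2.29 CPM and 3.51 to 8.27 CPM (log2 1.52 ± 0.36, adjusted p = 0.436; 0.00247 to 0.995 over the alternatives). Igfbp1 of the same list was at 73.0 to 103 CPM in null and 20.8 to 115 CPM in hHKDC1 OE liver (log2 -0.55 ± 0.51, adjusted p = 0.888), and it passed without hHKDC1 OE replicate 2 (log2 -1.58, adjusted p = 0.0230), while without hHKDC1 OE replicate 3 it was at log2 -0.15. Of 12 genes that insulin raises, 9 were lower and 3 higher, with a median of -0.43. Angptl8, a feeding-induced regulator of lipoprotein lipase, was among the 3, at 11.1 to 24.6 CPM in null and 18.3 to 69.6 CPM in hHKDC1 OE liver (log2 1.53 ± 0.46, adjusted p = 0.539; 2.59e-13 to 0.995 over the alternatives). Thrsp, which insulin and carbohydrate induce with lipid synthesis, was among the 9, at 891 to 1692 CPM in null and 419 to 797 CPM in hHKDC1 OE liver, with no overlap (log2 -0.95 ± 0.30, adjusted p = 0.586; 0.000971 to 0.995 over the alternatives). Of 20 transcription factors and coactivators of glucose synthesis, 12 were lower, and with library size alone 8 were. Among them Ppargc1a, a coactivator of FOXO1, gave log2 -0.35 ± 0.19 (adjusted p = 0.788), and Foxo3 log2 -0.35 ± 0.15 (adjusted p = 0.689). Of 18 insulin signalling kinases and adaptors tested, 13 were higher, with a median of 0.05, and of 14 brakes on insulin signalling, 12 were higher, with a median of 0.12.

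Lists of signals that also act on these genes were read beside them. Of 10 other glucocorticoid-induced genes tested, 8 were lower in hHKDC1 OE liver (median log2 -0.41). Cdkn1a of that list, a brake on the cell cycle, was at 6.42 to 33.1 CPM in null and 0.922 to 2.66 CPM in hHKDC1 OE liver (log2 -3.18 ± 0.64, adjusted p = 0.355; 1.35e-27 to 0.964 over the alternatives), and at log2 -2.10 without null replicate 3. Lcn2, which inflammation also induces, was at 4.36 to 21.2 CPM and 48.6 to 700.3 CPM (log2 5.17 ± 0.97, adjusted p = 0.345; 1.64e-109 to 0.995 over the alternatives), and at log2 6.29 without null replicate 3 and 4.31 without hHKDC1 OE replicate 1. Of 13 clock genes 8 were lower (median -0.14), among them Cry1, a repressor of the clock and of glucagon signalling, at 15.4 to 18.3 CPM and 6.86 to 10.5 CPM (log2 -1.02 ± 0.20, adjusted p = 0.355; 0.000945 to 0.893 over the alternatives). Dbp, a clock output factor, lay the other way without overlap, at 40.8 to 82.8 CPM and 92.9 to 137 CPM (log2 0.74 ± 0.26, adjusted p = 0.606; 0.00597 to 0.995 over the alternatives). Of 7 hormone receptors 5 were lower (median -0.05; 3 with library size alone). Of 12 acute phase genes, 10 were higher, with a median of 1.89. Saa1, a serum amyloid, was at 21.2 to 79.2 CPM in null and 603 to 6245 CPM in hHKDC1 OE liver (log2 6.41 ± 0.90, adjusted p = 0.149; 1.5e-114 to 0.695 over the alternatives), and at log2 7.14 without null replicate 3. None of these lists had a gene past the threshold in liver with edgeR.

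The second vector comparison asked the same of subcutaneous fat, a tissue in which the TBG promoter is not known to be active. With edgeR no gene passed (0% of 16380 tested, smallest adjusted p = 0.133), and neither did any of the 10. DESeq2 called 1446 of 29853 genes, 1253 higher and 193 lower, and among the lower ones were Tat, Fbp1, Sds and Foxo1 (adjusted p = 0.00435, 0.0141, 0.0197 and 0.0200). At an unadjusted p under 0.05 there were 5 of the 10, Foxo1, Fbp1, Insr, Tat and Sds, each lower, where 17.7% of all genes had such a p and 6.39% were also lower. The groups did not overlap for 5 of the 10, Fbp1, Tat, Irs1, Foxo1 and Insr, each lower, where 22.7% of all genes did not overlap, 10.2% with hHKDC1 OE lower. All 10 had a fitted log2 fold change below 0, although Pcx, Irs1 and Irs2 were at 0.029, 0.011 and 0.038 with library size alone, a scaling that put the median of all genes at 0.11 in place of -0.05. The median of the 10 was -0.62.

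Foxo1 and Insr were lower in every hHKDC1 OE fat library than in any null one. Foxo1 was at 218, 193 and 185 CPM in null fat and 107, 139 and 109 CPM in hHKDC1 OE fat. The groups lay well apart relative to their spread. Foxo1 was 1.68-fold lower (log2 -0.75 ± 0.16, unadjusted p = 0.00259, adjusted p = 0.133), and it passed without hHKDC1 OE replicate 2 (log2 -0.89, adjusted p = 0.00837), as Insr did (log2 -0.57, adjusted p = 0.0365), in a fit that called 3251 genes. Insr was at 185, 209 and 183 CPM in null fat and 123, 153 and 137 CPM in hHKDC1 OE fat, 1.40-fold lower (log2 -0.48 ± 0.15, unadjusted p = 0.0139, adjusted p = 0.179). Adipocyte markers were measured beside them: 6 of the 8 had a fitted value below 0, the median was -0.33, and their sum was 16057 to 19583 CPM in null fat and 11902 to 18359 CPM in hHKDC1 OE fat. In hHKDC1 OE replicate 2, where the adipocyte sum was 18359 CPM and the B cell sum 50.0 CPM, Foxo1 and Insr were the highest of their group at 139 and 153 CPM. The part of adipocytes or lymphocytes in these values was not tested.

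The adaptors differed little. Irs1 was at 28.5, 30.6 and 29.1 CPM in null fat and 26.0, 28.3 and 25.6 CPM in hHKDC1 OE fat, with the groups just apart (log2 -0.14 ± 0.14, adjusted p = 0.592). Irs2 was at 64.9, 56.4 and 73.2 CPM in null fat and 41.6, 73.7 and 65.0 CPM in hHKDC1 OE fat (log2 -0.11 ± 0.23, adjusted p = 0.814), and hHKDC1 OE replicate 1 alone lay below the null range. Of the 2 enzymes that fat itself uses, Pck1 was at 2867, 4525 and 3286 CPM in null fat and 3190, 2177 and 3625 CPM in hHKDC1 OE fat (log2 -0.25 ± 0.32, adjusted p = 0.692). Pcx was at 1134, 1292 and 1260 CPM in null fat and 1251, 1234 and 890 CPM in hHKDC1 OE fat (log2 -0.13 ± 0.22, adjusted p = 0.776). For both the groups overlapped, and the low library was hHKDC1 OE replicate 2 for Pck1 and replicate 3 for Pcx.

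The 4 liver enzymes had the largest fitted differences in fat and the largest spread. G6pc was at 15.7, 16.1 and 41.9 CPM in null fat and 17.5, 4.55 and 5.04 CPM in hHKDC1 OE fat (log2 -1.44 ± 0.64, adjusted p = 0.295). Fbp1 was at 32.1, 30.5 and 82.3 CPM in null fat and 22.7, 13.2 and 16.4 CPM in hHKDC1 OE fat (log2 -1.47 ± 0.43, unadjusted p = 0.0109, adjusted p = 0.167). In both, null replicate 3 was far above the other null libraries and hHKDC1 OE replicate 1 was the highest of its group. Tat was at 99.3, 77.3 and 207 CPM in null fat and 55.5, 18.0 and 8.85 CPM in hHKDC1 OE fat (log2 -2.22 ± 0.70, unadjusted p = 0.0154, adjusted p = 0.186). Sds was at 5.41, 10.5 and 25.9 CPM in null fat and 5.97, 2.59 and 1.84 CPM in hHKDC1 OE fat, from 30 to 484 counts per library (log2 -2.0 ± 0.68, unadjusted p = 0.0212, adjusted p = 0.211). The groups of G6pc and Sds overlapped through hHKDC1 OE replicate 1. Without null replicate 3 the log2 fold changes were -0.85 for G6pc, -0.87 for Fbp1, -1.71 for Tat and -1.22 for Sds. Without hHKDC1 OE replicate 1 they were -2.36 for G6pc, -3.24 for Tat and -2.64 for Sds. Fbp1 passed with the 12 libraries in 1 fit (log2 -1.41, adjusted p = 0.0465) and without the filter on low counts (log2 -1.51, adjusted p = 0.0474).

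**Figure D3:**
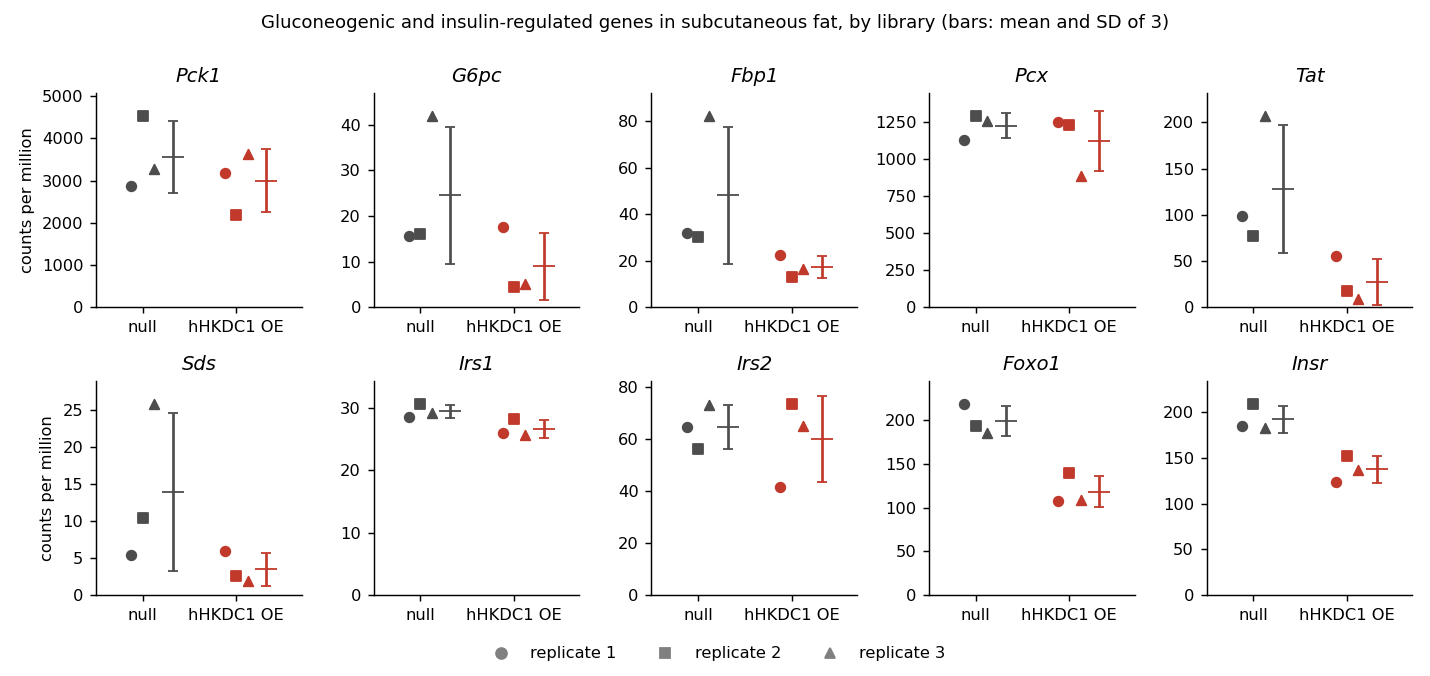
CPM in each subcutaneous fat library for the 10 genes, drawn as in the liver plot, with every axis from 0. Foxo1 and Insr show 2 separate groups of similar spread, while for G6pc, Fbp1, Tat and Sds null replicate 3 (grey triangle) stands far above the other 5 libraries.

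Hepatocyte RNA in the fat libraries went with the same 4 enzymes. As a percent of the mean level in liver of the same vector (CPM scaled over the 12 libraries), the 9 hepatocyte markers had a median of 1.03%, 1.20% and 3.72% in null fat, then 1.39%, 0.491% and 0.760% in hHKDC1 OE fat. G6pc was at 1.44%, 1.48% and 3.85% in null fat, then 1.93%, 0.491% and 0.554% in hHKDC1 OE fat. Fbp1 was at 1.40%, 1.34% and 3.59%, then 1.18%, 0.677% and 0.851%. Tat was at 1.62%, 1.27% and 3.39%, then 2.11%, 0.673% and 0.336%, and Sds at 1.06%, 2.06% and 5.07%, then 1.69%, 0.722% and 0.523%. So for all 4, null replicate 3 was the highest fat library and hHKDC1 OE replicates 2 and 3 the lowest, as for the hepatocyte markers. Single values lay outside the range of the 9 markers on both sides. Tat in hHKDC1 OE replicate 3 was below that range (0.618% to 0.957%), and Sds in null replicate 3 was above it (3.52% to 4.64%). The other 6 genes stood far above the level of the hepatocyte markers. Pck1 was at 32.4% to 62.4% of its liver level in the 6 fat libraries, Insr at 52.6% to 85.2%, Pcx at 89.2% to 125%, Foxo1 at 95.6% to 142%, Irs2 at 107% to 230% and Irs1 at 207% to 243%. All 9 hepatocyte markers had a fitted log2 fold change below 0 between fat groups, 0 past the threshold. Their values ran from -1.91 for Alb to -0.595 for Ambp, with a median of -1.499. G6pc at -1.44 and Fbp1 at -1.47 lay within that range, while Tat at -2.22 and Sds at -2.0 were below all 9 markers. The part of hepatocyte RNA in the differences of the 4 enzymes was not tested.

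**Figure D4:**
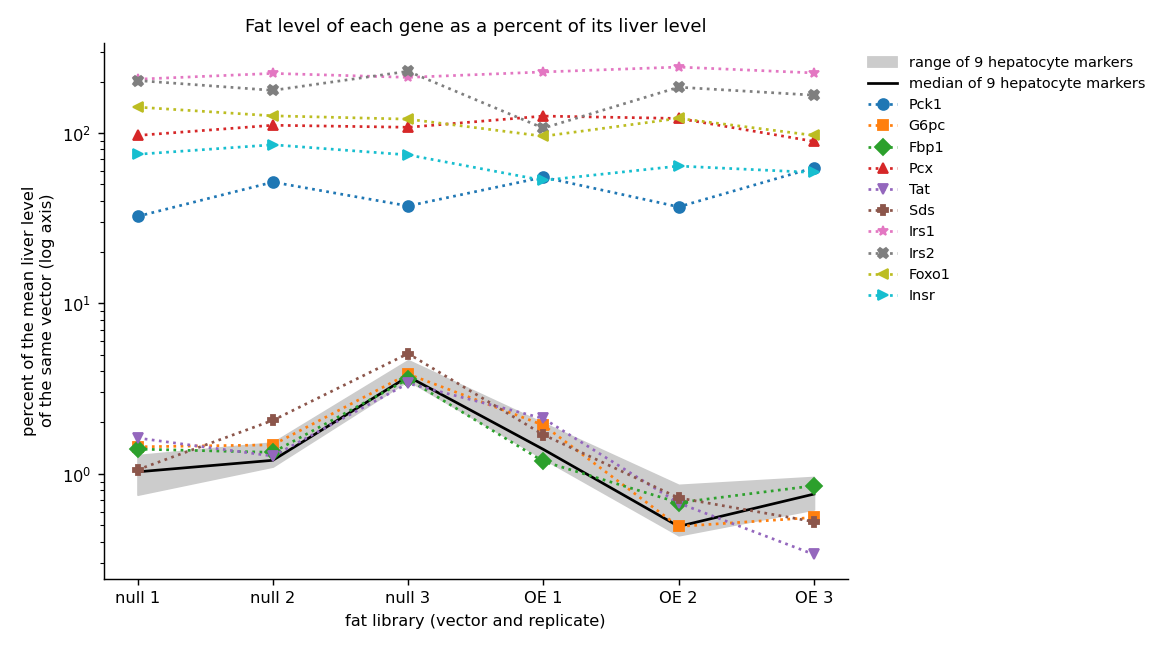
Level of each gene in each fat library as a percent of its mean level in liver of the same vector, on a log axis; the grey band is the range and the black line the median of 9 hepatocyte markers. G6pc, Fbp1, Tat and Sds lie in or near the band, whose median peaks at 3.72% in null replicate 3, with points outside it on both sides. In hHKDC1 OE replicate 3, Tat is at 0.336% and the band at 0.618% to 0.957%. In null replicate 3, Sds is at 5.07% and the band at 3.52% to 4.64%. The other 6 genes lie at 32.4% or above.

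Of the pathway lists in fat, again 0 genes passed with edgeR, and the counts are directions of the fit beside 53.9% of all genes below 0. All 20 other enzymes of amino acid breakdown were lower in hHKDC1 OE fat under each of the 3 scalings, with a median log2 fold change of -1.05. Aass, which degrades lysine, was at 8.81 to 26.3 CPM in null and 2.93 to 7.20 CPM in hHKDC1 OE fat (log2 -1.66 ± 0.51, adjusted p = 0.179; 0.0170 to 0.472 over the alternatives). All 20 were also called lower in null fat than in null liver, with a median of -5.09, where 30.5% of all genes were called lower. The 9 hepatocyte markers also had fitted values below 0 in fat, with a median of -1.499, and their part in this list was not tested. Of 13 genes of glucose use and glycogen tested, 12 were lower (median -0.55). Ppp1r3c was at 64.7 to 249 CPM in null and 29.4 to 55.6 CPM in hHKDC1 OE fat (log2 -2.02 ± 0.50, adjusted p = 0.136; 0.000548 to 0.412 over the alternatives). Of 20 transcription factors 15 were lower (median -0.47), with Foxo3, a relative of FOXO1, at 76.9 to 83.3 CPM in null and 48.5 to 63.1 CPM in hHKDC1 OE fat (log2 -0.57 ± 0.15, adjusted p = 0.143), and it passed without hHKDC1 OE replicate 2 (log2 -0.72, adjusted p = 0.0103). Of 19 insulin signalling kinases and adaptors, 14 were lower (median -0.18; 11 with library size alone).

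Some named genes had fitted values above 0 in fat. Besides those below, Lcn2 was at log2 2.64 ± 0.43 (adjusted p = 0.133), and Gapdh at log2 2.71 ± 1.29 with overlapping groups (adjusted p = 0.323). Socs1, a brake on insulin and cytokine signalling, was at 0.486 to 2.30 CPM in null and 3.32 to 15.8 CPM in hHKDC1 OE fat (log2 3.07 ± 0.76, adjusted p = 0.137, and 0.000171 to 0.412 over the alternatives). Of the 14 brakes, 10 were lower, and 8 with library size alone. Lepr, the leptin receptor, was at 2.29 to 4.26 CPM and 5.03 to 43.8 CPM (log2 2.93 ± 0.74, adjusted p = 0.138; 0.000162 to 0.412 over the alternatives), and at log2 2.06 without hHKDC1 OE replicate 3. Of 12 acute phase genes 8 were higher, and Saa1 was at 0.669 to 3.74 CPM in null and 56.6 to 130 CPM in hHKDC1 OE fat (log2 5.26 ± 0.65, adjusted p = 0.133; 3.83e-19 to 0.406 over the alternatives), and at log2 5.93 without null replicate 3. Angptl8 is again counted in both insulin lists. Of the remaining lists, 11 of 15 shared enzymes of glycolysis (8 with library size alone), 10 of 13 genes that insulin lowers (8), 8 of 12 that insulin raises (6), 10 of 14 clock genes (10), 9 of 10 glucocorticoid-induced genes (9) and 6 of 7 hormone receptors (4) were lower in hHKDC1 OE fat. B cell and T cell markers, given above, were higher in the same libraries, and their part in these values was not tested.

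An interaction term fitted to the 12 libraries tested whether the vector difference was the same in both tissues, and it uses the same null samples as the comparisons above. None of the 10 genes passed with edgeR, where none of 17070 genes did (0%, smallest adjusted p = 0.139). DESeq2 called 497 genes and none of the 10. At an unadjusted p under 0.05 there was 1 of the 10, Fbp1, against 12.7% of all genes. Its vector difference was lower in fat than in liver by a log2 value of -1.22 ± 0.51 (adjusted p = 0.341). Sds (-1.47 ± 0.78, adjusted p = 0.458), G6pc (-1.18 ± 0.85, adjusted p = 0.598) and Tat (-1.01 ± 0.92, adjusted p = 0.689) had fitted values of like size with larger errors. Without hHKDC1 OE fat replicate 1 these were -2.27 for Sds, -2.27 for G6pc and -2.19 for Tat, and without null fat replicate 3 that of Sds was -0.81. Insr was at -0.42 ± 0.21 (adjusted p = 0.428) and Irs2 at -0.41 ± 0.40 (adjusted p = 0.711), while Foxo1 was at -0.31 ± 0.28 (adjusted p = 0.697). Pck1 was at 0.35 ± 0.50, Irs1 at 0.12 ± 0.27 and Pcx at 0.09 ± 0.29, so no difference between the tissues was detected for them. The larger fitted differences in fat are therefore not shown to differ from those in liver.

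**Figure D5:**
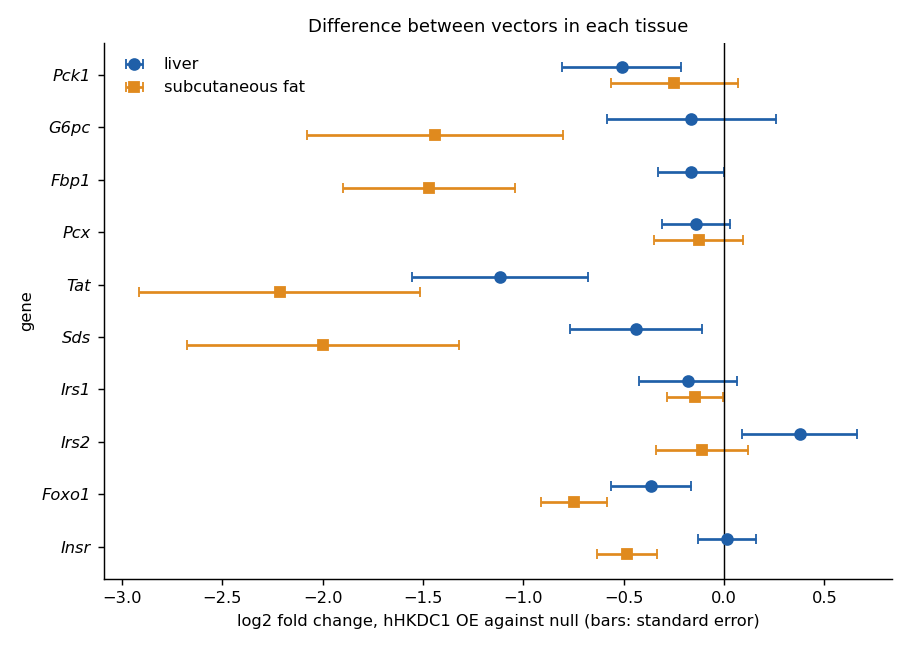
Log2 fold change of hHKDC1 OE against null for each gene in liver (blue circles) and subcutaneous fat (orange squares), with bars of 1 standard error. The fat values of G6pc, Fbp1, Tat and Sds lie between -2.22 and -1.44 with long bars. Those of Foxo1 at -0.75 and Insr at -0.48 have short bars that do not reach 0.

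Genes whose pattern over the 12 libraries lay closest to each of the 10 were found by the root mean square difference of mean-centred log2 CPM among 17069 genes. The closest to Fbp1 were Aass and the hepatocyte receptor Asgr1, at a difference of 0.15 for both. G6pc lay closest to Hamp, which encodes the liver hormone hepcidin, and to Cyp3a25, at 0.26 and 0.28, and Sds to Ces1e and Nr1i2, at 0.33 and 0.37. Tat had no close neighbour, with Hamp at 0.54 and G6pc at 0.60. Pck1 lay closest to Gm10222 and Trp53inp1, at 0.24 and 0.25. Insr lay next to Stk35 at 0.099, Pcx next to Rnpepl1 at 0.11, Irs1 next to Ago2 at 0.12, Foxo1 next to Exoc6 at 0.18 and Irs2 next to Uggt2 at 0.19. The split by tissue enters this measure for genes that differ between the tissues, and its part was not tested.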

How the data were processed

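Strand-nonspecific RNA libraries of liver and subcutaneous fat were sequenced by the authors, aligned with STAR 2.5 and counted per gene with HTSeq 0.6.1, per the labels and the submitters' processing notes. The deposited table gives raw read counts of 54532 genes, and the deposited FPKM are those counts divided by a size factor over the 12 libraries and by gene length, which was checked on 252371 values. The methods name the human genome, but 99.8% of the identifiers are mouse genes of GENCODE M21 (GRCm38). The authors' own comparison files, with log2 fold changes and p-values, were not used.

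Counts were tested with edgeR 4.0.16 (quasi-likelihood, TMM normalization, filterByExpr, Benjamini-Hochberg adjustment, threshold 0.05) in R 4.3.3, separately for liver, fat and the null tissues, and over the 12 libraries for the interaction. The step was tested on simulated counts. CPM were scaled by the TMM factors of each tissue. Between tissues, FPKM or CPM with 1 scaling over the 12 libraries (marker sums, percent of liver, likeness) were used. Standard errors come from the fit. Alternatives were DESeq2 1.42.0, upper-quartile or library-size scaling, no filter, at least 10 counts in every library, a replicate block, the 12 libraries in 1 fit and leaving out each library. The study gives 3 mice a group for the fat libraries. For liver the labels do not say that replicates were separate animals, nor which liver and fat libraries share a mouse, so p-values measure the spread between these samples. Between replicates, counts differed by a chi-square per gene of 21.8 to 136 in liver and 27.2 to 173 in fat, where counting noise alone gives about 1.

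The 10 genes, 13 pathway lists and marker lists were chosen with earlier results of these data known. Named besides the 10 were fixed relatives and partners, part of the 2 genes of smallest unadjusted p in liver of each list, and for likeness the 2 closest genes. Genes of that rule that are not named are not reported here. Genes of the lists named in fat alone, and Alb and Clec4f, were chosen after their values were seen. The comparisons share their null libraries. With 15496019 to 19954971 counts per library and the TMM factors, 1 CPM is 15.4 to 21.1 counts. Intervals and floors cover counting error only.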

Additional observations from a re-analysis of the deposited data

How the results depend on the processing

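In liver, 0 genes of the 10 passed, 1 without the filter on low counts (Tat), and 0 to 1 on leaving out a library (Sds without hHKDC1 OE replicate 2, log2 -0.996). Over all genes the liver count of 0 became 94 with DESeq2, 2 with library size alone and 327 without the filter, and 0 to 146 on leaving out a library. In fat, 4 of the 10 passed with DESeq2, 1 without the filter and 1 with the 12 libraries in 1 fit (Fbp1 in both), and 0 to 2 on leaving out a library (Foxo1 and Insr without hHKDC1 OE replicate 2). Over all genes in fat the counts were 1446 of 29853 (193 lower), 803 of 29853 (80 lower) and 876 of 17070 (106 lower), where each called gene of the 10 was lower, and 0 to 3251 on leaving out a library. For the interaction DESeq2 called 497 genes and the fit without the filter 479, none of the 10 in either, and 0 to 1211 on leaving out a library. Between null tissues 7 to 9 of the 10 and 7339 to 11298 of all genes passed. The cause of these changes was not tested, beyond the fewer samples of each smaller fit.

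Some signs turned, in each case but Insr between tissues without a call. In liver, Insr was -0.0054 with the 12 libraries in 1 fit and -0.089 to 0.079 on leaving out a library, and G6pc -0.77 to 0.18. In fat, library size alone gave 0.029 for Pcx, 0.011 for Irs1 and 0.038 for Irs2, and leaving out a library gave -0.21 to 0.018 for Pcx and -0.29 to 0.096 for Irs2. Between tissues, library size alone gave 0.53 for Insr and 0.042 for Foxo3. In the interaction, Pcx was -0.0024 with DESeq2 and -0.19 to 0.16 on leaving out a library, and Irs1 -0.14 to 0.20.

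With the replicate number as a block, 17 genes passed in liver and 168 in fat, none of the 10, and Foxo1 passed between tissues (log2 0.39, adjusted p = 0.0424). Same-numbered libraries of the vector groups correlated in their deviations at 0.207, 0.159 and 0.0755 in liver and 0.0259, -0.134 and 0.0349 in fat, and those of the tissues at 0.241, 0.0328 and 0.141 in null mice, so the numbers were not taken to pair the samples. Not every library correlated best with its own number.

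Each group has 3 libraries, and the highest was up to 4.19 times the lowest in hHKDC1 OE liver (Tat), 4.78 times in null fat (Sds) and 6.27 times in hHKDC1 OE fat (Tat). The smallest detectable difference was not estimated. For Irs1 in liver, 92 to 142 counts per library, and for Sds in fat, 30 to 484, limit the precision.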
